A study of Rattus norvegicus with 16 samples.

Results

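The members are 10 rat genes of nuclear factor kappa B (NF-kB) signalling: the subunit genes Nfkb1, Nfkb2 and Relb, the genes of the nuclear IkB proteins Bcl3 and Nfkbiz, the inhibitor genes Nfkbia, Tnfaip3 and Tnip1, and the survival genes Birc3 and Bcl2a1. They were chosen by name, through probe sets (groups of short probes for a transcript) whose only gene symbol in the array annotation is one of these. Such probe sets numbered 13, of 20832 with exactly 1 symbol and 31099 in all, and the 10 genes stand among 14218 that were measured. All 10 were measured and tested, since no filter on low values was used. Bcl3 had 3 probe sets, Nfkbiz had 2 and the other 8 genes had 1 each.

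The study followed gene expression in rat cortex through the early hours after a traumatic brain injury, with 16 Affymetrix arrays. All animals were male Wistar rats, 8 weeks old, and all of them, shams included, had a hole made in the skull over the right parietal cortex 48 h before the procedure. In the injured group a pulse of fluid of moderate pressure then struck the dura from the side (lateral fluid percussion), which bruises the cortex beneath, and the sham group received the procedure without the pulse. After 3, 6, 12 or 48 h the animals were perfused with saline, the cortex at the contusion was cut out, or the matching cortex of a sham, and its polyadenylated RNA was labelled. Injured animals gave 3 arrays at each time. Shams gave 1 array at each time, and the study's design text pools the shams of 3, 6 and 12 h into a control group, here called the early shams (3 arrays), and the 48 h sham as the control of the 48 h injury. The labels do not say whether arrays come from separate animals, so p-values measure the spread between arrays.

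NF-kB proteins are transcription factors that wait in the cytoplasm, bound by inhibitors of the IkB family, until a receptor such as the tumor necrosis factor receptor, the interleukin-1 receptor or a toll-like receptor activates the IkB kinases. The kinases mark the inhibitor for destruction, the dimers of subunits enter the nucleus, and they bind short DNA stretches called kappaB sites. Among the genes they switch on are those of their own inhibitors and of some of their own subunits, which makes the response self-limiting. In the brain the pathway is best known for inflammatory gene expression in microglia, astrocytes, endothelium and invading leukocytes.

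Because the members are known as genes that NF-kB itself controls, the stretch of each promoter that holds a kappaB site is shown first. The window searched ran from 250 bases before to 50 after the transcript start that the RefSeq promoter table (assembly GRCr8) takes for each gene, on both strands, for the kappaB consensus in its usual form of 10 letters. A promoter was in the table for 8 of the 10 members, and those of Birc3 and Relb were not. The consensus was found in 7 of these 8 windows (87.5%), against 4.18% of all 33469 promoters in the table and 4.93% of the 11734 promoters of genes measured on the arrays. The Bcl2a1 window held no match, which says only that these letters are not in that window. A match is a description of the letters and no measure of binding. In the sequences, written 5′ to 3′ on the strand of the gene, capitals mark the letters of the matches and lower case their surroundings.
Nfkb1: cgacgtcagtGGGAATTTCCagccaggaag
Nfkb2: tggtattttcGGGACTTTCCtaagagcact
Bcl3: tcggcggcagGGGAAGTCCCgcagcccggc
Nfkbiz: tttttggcctGGGAATTTCCagc
Nfkbia: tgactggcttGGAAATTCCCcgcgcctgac
Tnip1: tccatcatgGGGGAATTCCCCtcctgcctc
Tnfaip3: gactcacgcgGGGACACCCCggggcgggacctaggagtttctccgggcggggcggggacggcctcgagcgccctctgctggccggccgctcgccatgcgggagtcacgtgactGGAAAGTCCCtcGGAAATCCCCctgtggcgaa

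These windows lie on GRCr8 at chr2:226805440-226805469 (minus strand, Nfkb1), chr1:255108344-255108373 (plus strand, Nfkb2), chr1:88613574-88613603 (minus strand, Bcl3), chr11:58251698-58251720 (plus strand, Nfkbiz), chr6:78597084-78597113 (minus strand, Nfkbia), chr10:39585027-39585056 (minus strand, Tnip1) and chr1:15544015-15544159 (minus strand, Tnfaip3). The matches lie close to these start sites. The start sites of Nfkb1, Nfkb2, Nfkbia, Tnip1 and Tnfaip3 lie inside the span annotated for the gene, and those of Bcl3 and Nfkbiz at its edge. In Nfkb2 the match covers bases -20 to -11 before the start, in Nfkbia -31 to -22, in Bcl3 -38 to -29 and in Nfkbiz -13 to -4. In Nfkb1 it lies just past the start, at bases 4 to 13 of the transcript. Tnfaip3 has 3 separate matches, at -170 to -161, -67 to -58 and -55 to -46. In Tnip1 the letters match in 3 overlapping frames over bases -86 to -75, which is 1 palindromic stretch. Nfkb1 and Nfkbiz hold the same 10 letters.

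All values below are log2 values relative to the mean of the 3 early shams, so a value of 1 is a doubling of the signal. The base of the deposited logarithms was taken as 2, since the sources used here do not give it. The deposited values are centred on each probe set's median over the arrays, so they hold differences between arrays and not how strongly a gene is expressed, and the levels of 2 genes cannot be compared. For the same reason the neuronal and glial markers of the cortex could not be checked for presence. Means and errors are differences ± standard error (SE) from the limma model of the 6 groups, and a gene is said to rise or fall where the limma p-value, adjusted by Benjamini and Hochberg over the 14218 genes, was under 0.05. The standard deviation of an array over all probe sets ran from 0.190 to 0.349, the widest being injured 12 h replicate 2 and injured 48 h replicate 2, and even the 2 most similar arrays were no copies of each other (root mean square difference 0.202). In a bulk sample of tissue, fewer cells of a type and less RNA per cell cannot be told apart.

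All 10 NF-kB genes rose by 6 h, with the largest differences, over averaged probe sets, in Bcl2a1, Tnfaip3 and Birc3. At 48 h Bcl2a1 was the 1 member that still passed the test against the early shams. Against the 48 h sham, the single array that the study's design text sets as control, it differed by 0.84. For Bcl2a1 that sham itself stood 1.71 above the early shams. At 3 h, 7 of the 10 were higher than the early shams (median of the 10 differences 1.08), where 0.485% of all genes were called higher and 0.0985% lower. At 6 h all 10 were higher (median 1.08), where 1.98% of all genes were called higher and 0.682% lower. At 12 h, 6 of 10 were higher (median 0.75), against 3.49% called higher and 1.38% lower among all genes. None of the 10 was lower at any of these times, and the median difference over all genes lay between -0.02 and -0.01 at the same times. At 48 h only Bcl2a1 was higher than the early shams (median of the 10 differences 0.17), where 6.37% of all genes were called higher. The 4 comparisons with the early shams share the same 3 control arrays.

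**Figure D1:**
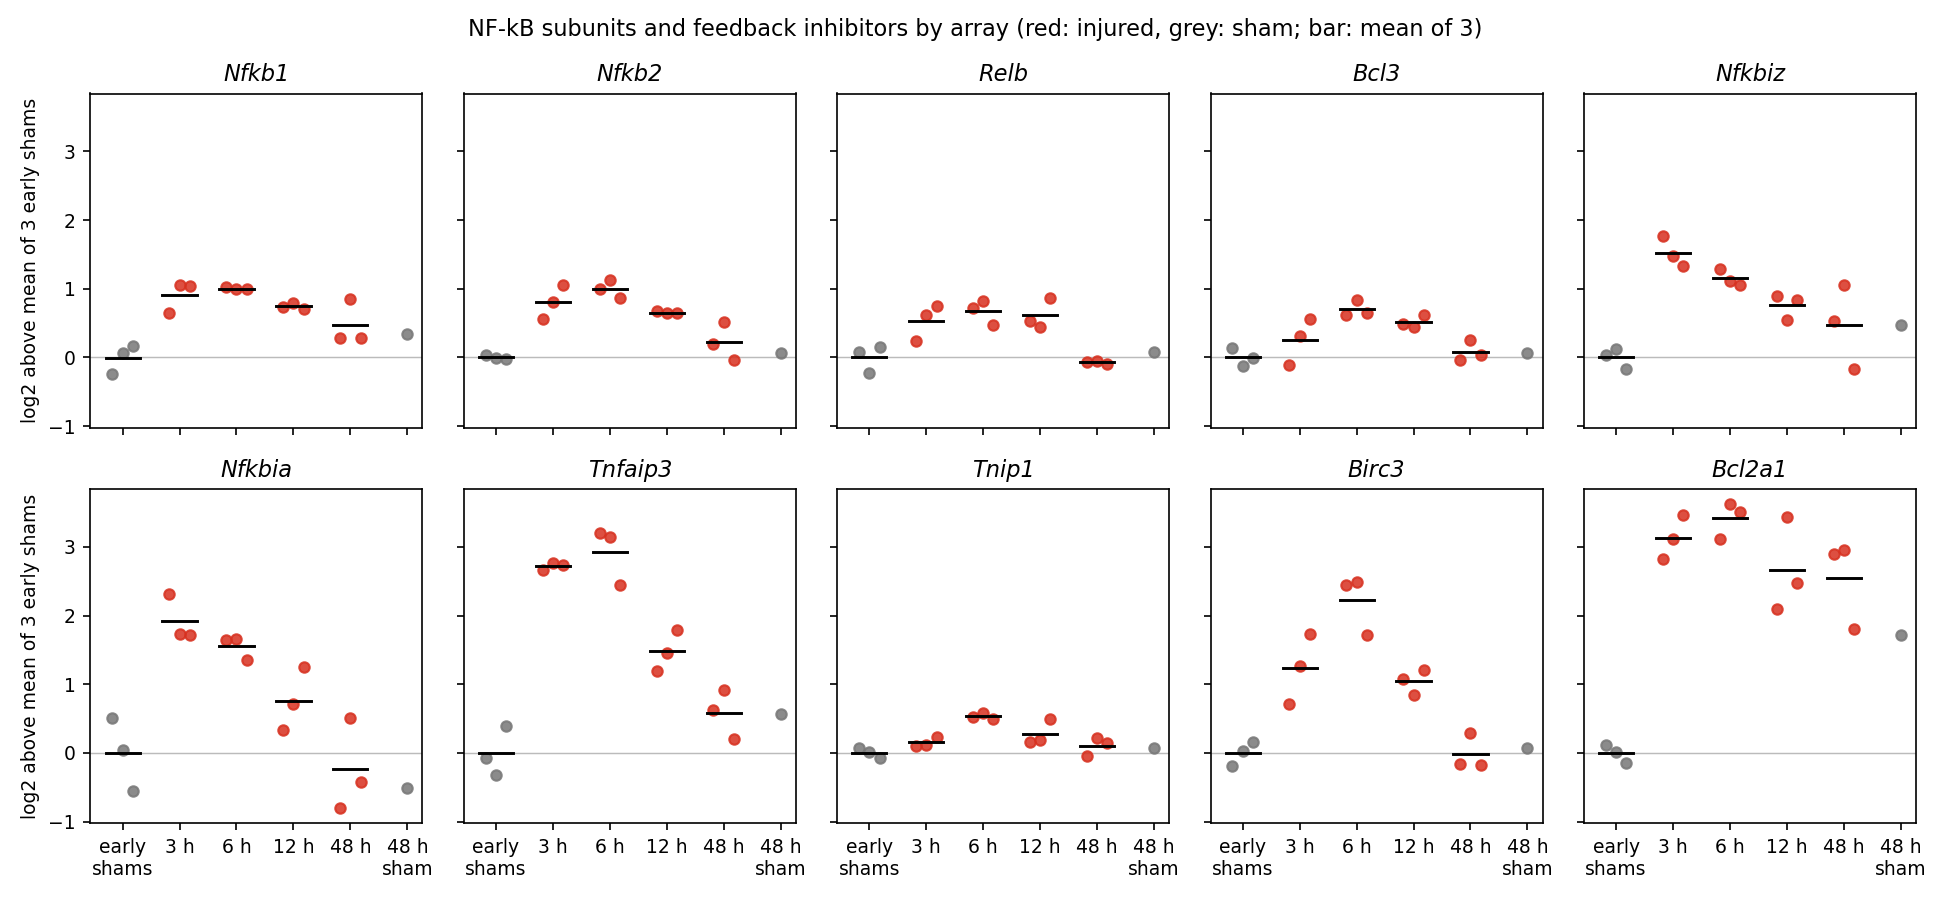
Each point is 1 array and each panel 1 gene, as log2 signal above the mean of the 3 early shams (vertical axis) by group (horizontal axis), injured arrays in red, shams in grey, with a bar at the mean of each group of 3. All 6 h injured arrays of all 10 genes lie above the early shams. How many of all measured genes separate in this way was not counted. In all 10 genes the 48 h mean is nearer to 0 than the 6 h mean. The 48 h sham of Bcl2a1 stands at 1.71.

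Nfkb1 encodes p105, the precursor of the p50 subunit. Its values in the injured arrays were 0.64, 1.06 and 1.04 at 3 h, 1.02, 1.0 and 0.99 at 6 h, 0.74, 0.79 and 0.70 at 12 h and 0.28, 0.85 and 0.28 at 48 h. The early shams were at -0.24, 0.07 and 0.16 and the 48 h sham at 0.34. All 12 injured arrays lay above the 3 early shams, and the 48 h arrays lay on both sides of their own sham. Nfkb1 was higher by 0.92 ± 0.15 at 3 h (limma adjusted p = 0.0123), 1.01 ± 0.15 at 6 h (adjusted p = 0.00238, 2.01-fold) and 0.75 ± 0.15 at 12 h (adjusted p = 0.0124). At 48 h the difference of 0.47 ± 0.15 from the early shams did not pass (adjusted p = 0.0663).

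Nfkb2 encodes p100, the precursor of p52 in the noncanonical branch of the pathway and itself an inhibitor until it is cut. Its injured arrays were at 0.56, 0.81 and 1.05 at 3 h, 0.99, 1.13 and 0.86 at 6 h, 0.67, 0.64 and 0.64 at 12 h and 0.20, 0.52 and -0.03 at 48 h. The early shams lay within 0.03 of their mean (0.03, -0.01 and -0.02) and the 48 h sham was at 0.06. Every array of 3, 6 and 12 h was above every early sham, and the 48 h arrays overlapped the shams. The differences were 0.81 ± 0.13 at 3 h (limma adjusted p = 0.0121), 0.99 ± 0.13 at 6 h (adjusted p = 0.000931) and 0.65 ± 0.13 at 12 h (adjusted p = 0.0128). The member nearest to Nfkb2 was Nfkb1, at a root mean square difference of 0.18 over the 16 arrays, and Bcl3 lay as near to Relb and to Tnip1 (0.18 each).

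Relb, the partner of p52, moved less. Its arrays were at 0.24, 0.62 and 0.75 at 3 h, 0.72, 0.82 and 0.47 at 6 h, 0.53, 0.44 and 0.87 at 12 h and -0.06, -0.05 and -0.09 at 48 h, with early shams at 0.08, -0.22 and 0.15 and the 48 h sham at 0.08. The arrays of 3, 6 and 12 h lay above the early shams and those of 48 h within them. Relb was higher at 6 h (0.67 ± 0.15, limma adjusted p = 0.0259) and 12 h (0.61 ± 0.15, adjusted p = 0.0286). At 3 h the difference was 0.53 ± 0.15 with an adjusted p of 0.18.

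Of the other Rel and IkB family genes, 4 of 6 were measured (Rel and Nfkbie were not analysed here), and 1 of the 4 was higher at 6 h and at 12 h. That gene was Rela, which encodes p65, the partner of p50, at 0.53 ± 0.12 at 6 h (limma adjusted p = 0.0379) and 0.48 ± 0.12 at 12 h (adjusted p = 0.0424). At 3 h Rela differed by 0.40 ± 0.12 (adjusted p = 0.257). The median of the 4 was 0.14, 0.20 and 0.14 at 3, 6 and 12 h.

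Bcl3 encodes a nuclear IkB protein that joins p50 or p52 dimers on DNA. Averaged over its 3 probe sets it was at -0.11, 0.31 and 0.56 at 3 h, 0.62, 0.84 and 0.65 at 6 h, 0.49, 0.44 and 0.62 at 12 h and -0.04, 0.25 and 0.03 at 48 h. In the early shams it was at 0.14, -0.13 and -0.01 and the 48 h sham at 0.06. The 3 h arrays overlapped the early shams, and the 6 and 12 h arrays did not. Bcl3 was higher at 6 h (0.70 ± 0.14, limma adjusted p = 0.0152). The difference was 0.25 ± 0.14 at 3 h (adjusted p = 0.634) and 0.52 ± 0.14 at 12 h (adjusted p = 0.0533).

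Nfkbiz encodes IkB zeta, a nuclear protein that is itself made on NF-kB activation and is needed for a second set of inflammatory genes. Averaged over its 2 probe sets it was at 1.77, 1.48 and 1.33 at 3 h, 1.29, 1.11 and 1.05 at 6 h, 0.90, 0.55 and 0.83 at 12 h and 0.53, 1.06 and -0.17 at 48 h. The early shams were at 0.04, 0.13 and -0.17 and the 48 h sham at 0.47. The 3 h arrays were the highest, all above those of 6 h, and the 48 h arrays overlapped both kinds of sham. Nfkbiz was higher at 3 h (1.53 ± 0.23, limma adjusted p = 0.00603, 2.88-fold) and 6 h (1.15 ± 0.23, adjusted p = 0.0132), and the 12 h difference of 0.76 ± 0.23 did not pass (adjusted p = 0.0732).

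The probe sets of these 2 nuclear IkB genes disagreed in size. Nfkbiz probe set 1378032_at was higher by 3.24 at 3 h, 2.43 at 6 h, 1.65 at 12 h and 1.10 at 48 h. The other, 1380798_at, lay between -0.18 and -0.13 at all 4 times, so that the averaged Nfkbiz value is carried by 1 probe set, whose difference is above that of Bcl2a1 at 3 h (3.14) and of Birc3 at 6 h (2.22). Bcl3 probe set 1398482_at was higher by 1.48 ± 0.18 at 6 h (limma adjusted p = 0.000389 over all probe sets) and 1.15 ± 0.18 at 12 h (adjusted p = 0.00211). Bcl3 probe sets 1385627_at and 1380414_at differed by 0.47 and 0.16 at 6 h. Read from 1398482_at alone, Bcl3 passed the test at 12 h as well, and rose between 3 and 6 h by 0.87 ± 0.18 (adjusted p = 0.0357).

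**Figure D2:**
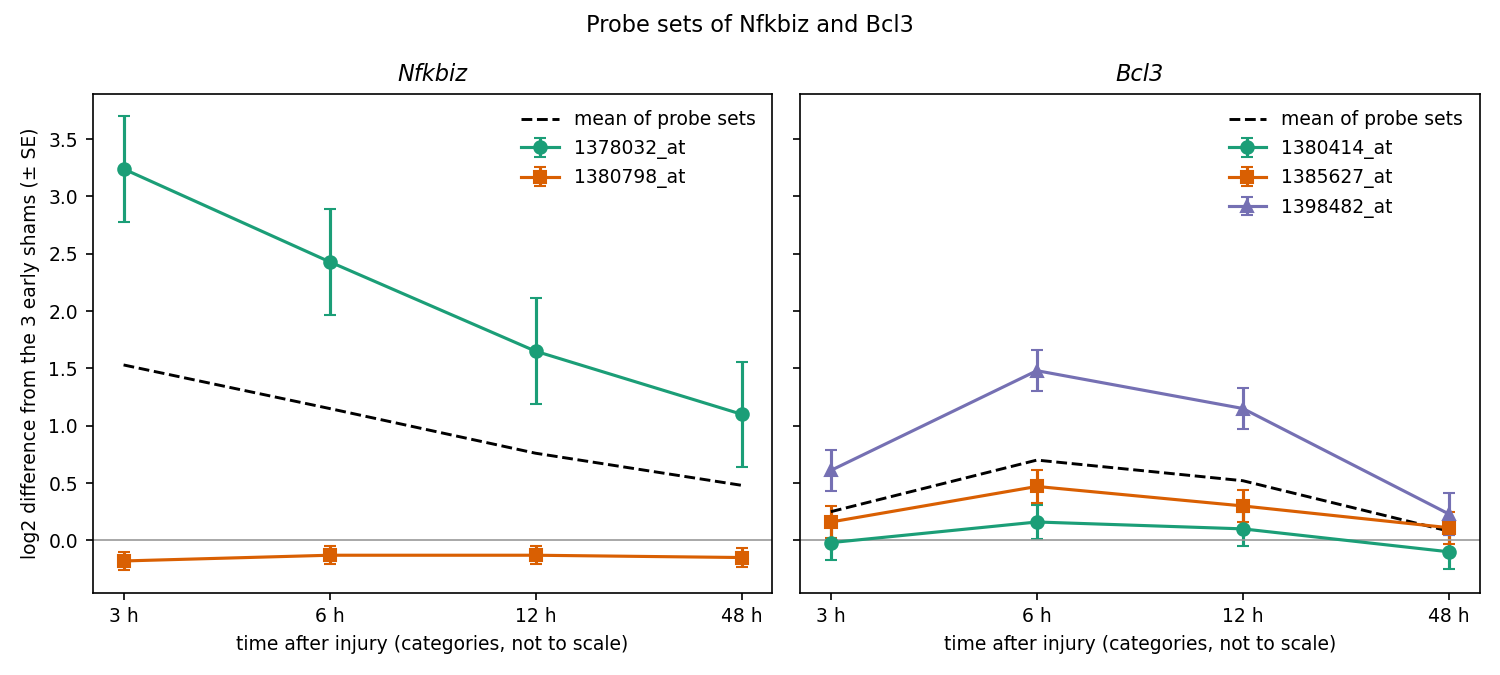
The plot gives the log2 difference of each probe set from the 3 early shams with its SE (vertical axis) at the 4 times (horizontal axis, as categories), for Nfkbiz on the left and Bcl3 on the right, with the mean of the probe sets dashed. Nfkbiz 1378032_at starts at 3.24 while 1380798_at stays under 0, and Bcl3 1398482_at reaches 1.48 at 6 h while 1380414_at reaches 0.16.

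Nfkbia encodes IkB alpha, the inhibitor that is degraded on activation and made anew within the response. It was at 2.32, 1.73 and 1.71 at 3 h, 1.64, 1.66 and 1.35 at 6 h, 0.33, 0.71 and 1.25 at 12 h and -0.80, 0.51 and -0.42 at 48 h. The early shams were spread wider than for any other member, at 0.51 (3 h sham), 0.04 (6 h sham) and -0.56 (12 h sham), and the 48 h sham was at -0.51. The 3 and 6 h arrays stood clear of the early shams, and those of 12 and 48 h overlapped them. Nfkbia was higher by 1.92 ± 0.33 at 3 h (limma adjusted p = 0.0154, 3.79-fold) and 1.55 ± 0.33 at 6 h (adjusted p = 0.0223), and the 12 h difference of 0.77 ± 0.33 did not pass (adjusted p = 0.211). The 3 h call passed in 1 of the 6 fits that left out 1 array each, at adjusted p-values of 0.0156 to 0.0962 and differences of 1.65 to 2.18.

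Tnfaip3 encodes A20, an enzyme that edits ubiquitin chains on signalling proteins and so shuts off the path from receptors to the IkB kinases. Its arrays were at 2.67, 2.76 and 2.74 at 3 h, 3.20, 3.15 and 2.44 at 6 h, 1.2, 1.46 and 1.79 at 12 h and 0.62, 0.91 and 0.20 at 48 h. Its early shams were at -0.07, -0.32 and 0.40 and the 48 h sham at 0.57. All arrays of 3, 6 and 12 h were above the early shams by a wide margin, and the 48 h arrays lay around their own sham. Tnfaip3 was higher by 2.72 ± 0.23 at 3 h (limma adjusted p = 4.08e-05, 6.59-fold), 2.93 ± 0.23 at 6 h (adjusted p = 1.85e-05, 7.60-fold) and 1.48 ± 0.23 at 12 h (adjusted p = 0.00254, 2.79-fold). In order of difference it ranked 17 of 14218 genes at 3 h and 25 at 6 h. The calls at these 3 times passed without any 1 of the arrays.

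Tnip1 encodes ABIN-1, a ubiquitin-binding partner of A20, and was the member that moved least. Its arrays were at 0.10, 0.12 and 0.24 at 3 h, 0.53, 0.58 and 0.50 at 6 h, 0.16, 0.19 and 0.50 at 12 h and -0.04, 0.22 and 0.14 at 48 h, with early shams at 0.08, 0.01 and -0.08 and the 48 h sham at 0.07. The 6 h arrays lay close together and above all other groups except 1 array of 12 h, which shared their range. Tnip1 was higher at 6 h (0.53 ± 0.10, limma adjusted p = 0.00754, 1.45-fold) and not at 3 h (0.15 ± 0.10, adjusted p = 0.691) or 12 h (0.28 ± 0.10, adjusted p = 0.117).

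Other inhibitors of the pathway were measured for 16 of 20 listed genes, and 0, 3 and 1 of them were higher at 3, 6 and 12 h, with medians of -0.02, 0.06 and 0.06. By limma, 2 of the 16 had an unadjusted p under 0.05 at 3 h. The highest was Tnip2, which encodes ABIN-2, another A20 partner, at 1.32 ± 0.20 at 12 h (adjusted p = 0.00151). Nlrc5 (0.69 ± 0.15, adjusted p = 0.0218) and Zc3h12a, which encodes the ribonuclease Regnase-1 (0.65 ± 0.15, adjusted p = 0.0336), were higher at 6 h.

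Birc3 encodes cIAP2, a ubiquitin ligase at the tumor necrosis factor receptors that protects cells from death. Its arrays were at 0.71, 1.27 and 1.73 at 3 h, 2.45, 2.49 and 1.72 at 6 h, 1.08, 0.85 and 1.21 at 12 h and -0.16, 0.29 and -0.18 at 48 h. The shams of 3, 6 and 12 h were at -0.19, 0.03 and 0.16 and the 48 h sham at 0.08. Every array of 3, 6 and 12 h was above every early sham, and of the 48 h arrays 2 lay within the range of the shams and 1 above it. Birc3 was higher by 1.24 ± 0.24 at 3 h (limma adjusted p = 0.0379), 2.22 ± 0.24 at 6 h (adjusted p = 0.000209, 4.66-fold) and 1.05 ± 0.24 at 12 h (adjusted p = 0.0246). The 3 h call passed in 1 of the 6 fits that left out 1 array each, with adjusted p-values of 0.0105 to 0.157. Birc2, its close relative, has a value of its own and differed by -0.08 ± 0.12 at 3 h (adjusted p = 0.902), 0.59 ± 0.12 at 6 h (adjusted p = 0.0148) and 0.60 ± 0.12 at 12 h (adjusted p = 0.0107). Whether the probes of one gene also bind RNA of the other was not tested.

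Bcl2a1 encodes A1, a Bcl-2 family protein that blocks cell death and is best known from leukocytes. Its arrays were at 2.82, 3.12 and 3.46 at 3 h, 3.11, 3.62 and 3.51 at 6 h, 2.10, 3.43 and 2.48 at 12 h and 2.90, 2.95 and 1.81 at 48 h. The early shams were at 0.11, 0.02 and -0.14, and the 48 h sham was at 1.71. All 12 injured arrays lay above all 4 shams, though the lowest 48 h array was only just above the 48 h sham. With probe sets averaged, Bcl2a1 had the largest difference of the members at each time, 3.14 ± 0.33 at 3 h (limma adjusted p = 0.000275, 8.79-fold), 3.42 ± 0.33 at 6 h (adjusted p = 7.5e-05, 10.7-fold), 2.67 ± 0.33 at 12 h (adjusted p = 0.000369, 6.38-fold) and 2.56 ± 0.33 at 48 h against the early shams (adjusted p = 0.000911, 5.88-fold). It ranked 12 of 14218 genes at 3 h and 19 at 6 h and at 48 h, and it passed without any 1 of the arrays at all 4 times.

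Of the other survival genes of the Bcl2 and caspase inhibitor families, 8 of 9 were measured, and 0, 2 and 2 were higher at 3, 6 and 12 h, with medians of -0.07, 0.03 and 0.04. At 3 h limma gave an unadjusted p under 0.05 for 2 of the 8. Those called were Mcl1, another Bcl-2 family protein (1.01 ± 0.16 at 6 h, limma adjusted p = 0.00296), and Birc2, which also stands in the list of receptor adaptors.

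**Figure D3:**
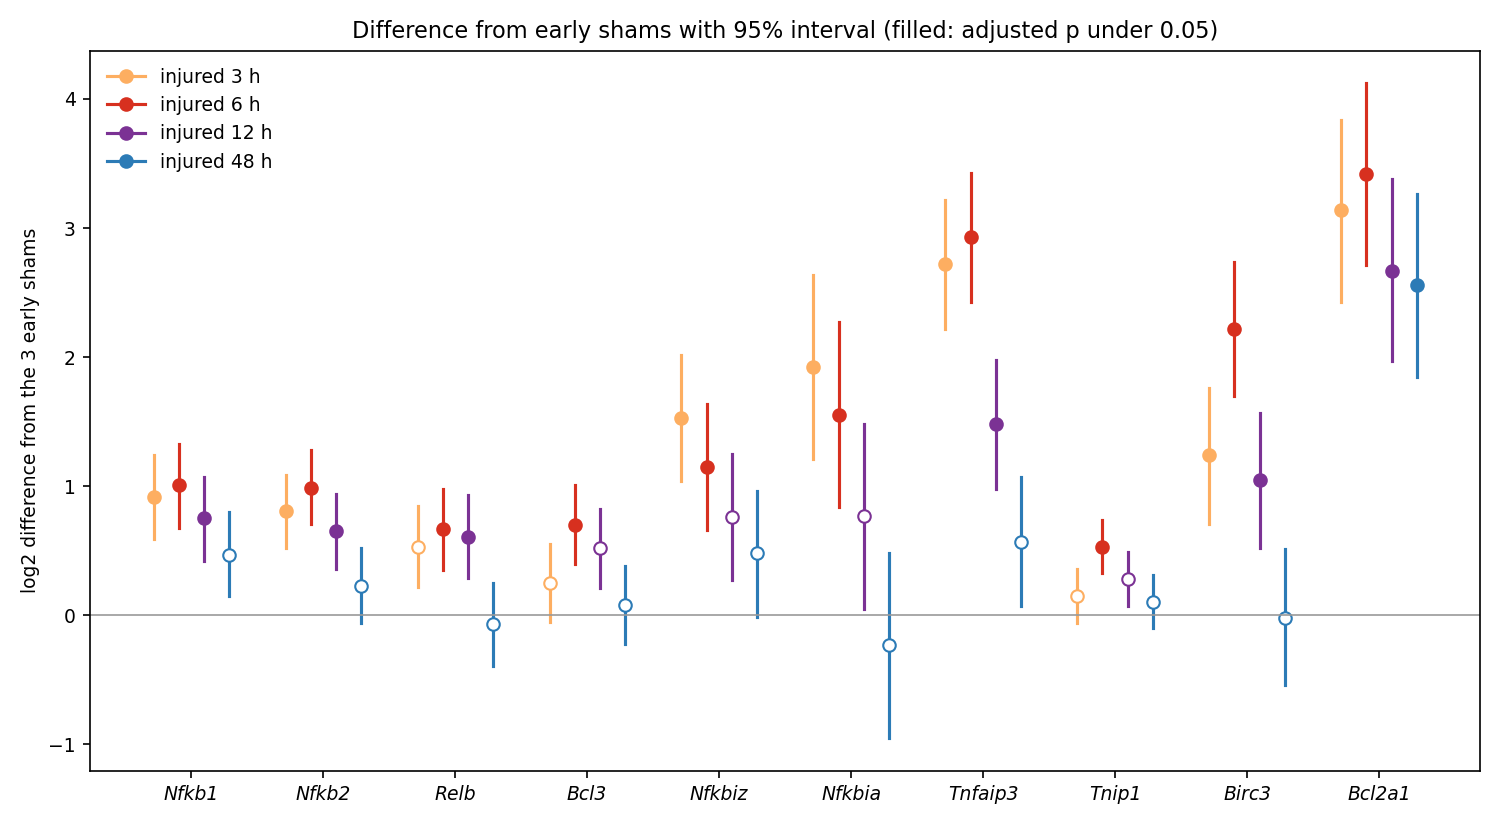
The log2 difference of each member from the 3 early shams (vertical axis) is drawn with its 95% interval from limma for injured 3, 6, 12 and 48 h (colours), filled where the adjusted p was under 0.05. At 6 h all 10 points are filled, and at 48 h the point of Bcl2a1, at 2.56, is the filled one.

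Leaving out 1 array changed how many members passed. At 3 h the count fell from 7 to 3 without injured 3 h replicate 2 or replicate 3. It was 4 without the 6 h sham or the 12 h sham. Calls among all genes fell too, from 83 to 33 and 39 without these injured arrays, and to 38 and 33 without these shams. At 6 h the count of members fell from 10 to 6 without injured 6 h replicate 2. Among all genes the calls in that fit fell from 379 to 177. At 12 h the count of members fell from 6 to 3 without the 3 h sham or the 6 h sham. Among all genes the calls in those fits fell from 692 to 403 and 287. Calls that held in all of these fits were Tnfaip3 and Bcl2a1 at 3, 6 and 12 h, Nfkbiz at 3 h, and Nfkb1, Nfkb2, Birc3 and Tnip1 at 6 h. The 3 h call of Nfkbia was lost without any of the injured 3 h arrays, the 6 h sham or the 12 h sham, and that of Birc3 without injured 3 h replicate 2 or 3 or any early sham. At 3 h, Nfkb1 was lost without injured replicate 2 or 3 (limma adjusted p up to 0.0812), and Nfkb2 without either of these, the 6 h sham or the 12 h sham (up to 0.0692). At 6 h, the call of Nfkbia ended without replicate 1 or 2 of the injured arrays, the 6 h sham or the 12 h sham (up to 0.104), and Relb without injured replicate 1 or 2, the 3 h sham or the 6 h sham (up to 0.135). At 6 h the call of Bcl3 ended without injured replicate 2, the 6 h sham or the 12 h sham (up to 0.0888), and that of Nfkbiz without replicate 1 or 2 of the injured arrays or without the 12 h sham (up to 0.0683). At 12 h, dropping the 3 h sham or injured replicate 2 ended the Nfkb1 call (adjusted p up to 0.0594), and dropping the 6 h sham ended that of Nfkb2 (0.0551). The 12 h call of Relb ended without injured replicate 3, the 3 h sham or the 6 h sham (up to 0.135), and Birc3 without injured replicate 1, the 3 h sham or the 6 h sham (up to 0.101). Against the 1 sham of the same time, the counts at 3, 6 and 12 h were 1, 3 and 1. At 12 h the count was 3 after quantile normalization between arrays, where 718 of all genes passed, against 692 in the main fit.

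The 48 h injury was compared with its own sham as the study's design text sets out. In that comparison 0 of the 10 members passed in limma, none had an unadjusted p under 0.05, and 0% of all genes were called, against 1061 genes with an unadjusted p under 0.05. This sham is 1 array, and its spread was taken to be that of the other groups. The largest difference was that of Bcl2a1, 0.84 ± 0.46, with a 95% interval of -0.15 to 1.84 (limma adjusted p = 0.733). For Tnfaip3 the difference was 0.01 with an interval of -0.70 to 0.72, and for Nfkbiz 0.00 with an interval of -0.69 to 0.69. Intervals of this width do not show that the injured and sham cortex had the same levels.

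The 48 h sham, a single array, was at 1.71 for Bcl2a1, 0.57 for Tnfaip3, 0.47 for Nfkbiz and 0.34 for Nfkb1. These values lay above all 3 early shams, as did that of Nfkb2, at 0.06 against a highest early sham of 0.03. In the other 5 members it lay within their range. How many of all genes had a 48 h sham above the early shams was not counted. Against the early shams 0 of 10 members passed, where 0.00703% of all genes did (1 gene), and by limma 1 member had an unadjusted p under 0.05. That member was Bcl2a1, which stood 1.71 ± 0.46 above the early shams in this 1 array (95% interval 0.72 to 2.71, limma adjusted p = 0.432) and ranked 21 of 14218 genes by difference. With all 4 shams as the control, Bcl2a1 at 48 h was higher by 2.13 (adjusted p = 0.0102) and no other member passed. Against the early shams, the count at 48 h was 3 without injured 48 h replicate 3, with Nfkb1 and Nfkbiz beside Bcl2a1. That fit called 2054 of all genes, against 1377 in the main fit.

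The order of the times was tested within the injured arrays, without a sham, so a change over time in the shams is not taken out. Means were highest at 3 h for Nfkbia and Nfkbiz and at 6 h for the other 8 members, but between 3 and 6 h 0 of 10 passed in limma, where 1.2% of all genes did, with an unadjusted p under 0.05 for 3 members. These 3 were Birc3, with a difference of 0.98 ± 0.24 (adjusted p = 0.0705), Tnip1, with 0.38 ± 0.10 (adjusted p = 0.0738), and Bcl3, with 0.45 ± 0.14 (adjusted p = 0.147). With arrays weighted by their spread as estimated by limma, all 3 passed. That fit called 1204 of all genes in this step, against 170 in the main fit. Birc3 alone passed without injured 3 h replicate 3 or without injured 6 h replicate 3, where 157 and 76 of all genes passed.

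From 6 to 12 h 0 of 10 passed, against 0.0141% of all genes, and all 10 means were lower at 12 h. The largest differences were those of Tnfaip3, -1.45 ± 0.23 (limma adjusted p = 0.0607), and Birc3, -1.17 ± 0.24 (adjusted p = 0.168), with all 3 arrays of 12 h below all 3 of 6 h in both genes. By limma 6 members had an unadjusted p under 0.05 in this step. Tnfaip3 passed after quantile normalization (-1.33, limma adjusted p = 0.0433), and also without injured 6 h replicate 3 or without injured 12 h replicate 3. Calls among all genes in these fits were 8, 5 and 45, against 2 in the main fit.

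Across the longer interval from 3 to 12 h, 2 of 10 members fell, where 3.21% of all genes were called lower. Both are inhibitors. Tnfaip3 fell by 1.24 ± 0.23 on the log2 scale (limma adjusted p = 0.00754), and this held without any 1 of the arrays. Nfkbia fell by 1.16 ± 0.33 (adjusted p = 0.0483), a call that was lost in 5 of the 6 fits that left out 1 array, namely without any of the injured 3 h arrays and without 12 h replicate 1 or 2. The early shams of Nfkbia, 1 array at each time, also stood lower at later times, at 0.51 (3 h), 0.04 (6 h) and -0.56 (12 h). Whether the Nfkbia step differs from that of the shams was not tested. Nfkbiz differed by -0.77 ± 0.23 over averaged probe sets (adjusted p = 0.0538). Its probe set 1378032_at alone differed by -1.59 ± 0.46 (limma adjusted p = 0.0563 over all probe sets). The differences of Nfkb1, Nfkb2, Relb and Birc3 from 3 to 12 h lay between -0.19 and 0.08, each with a 95% interval that spanned 0.

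From 12 to 48 h 4 of 10 fell, where 7.14% of all genes were called lower. Relb fell by 0.68 ± 0.15 (limma adjusted p = 0.00777) and Birc3 by 1.06 ± 0.24 (adjusted p = 0.0107), and both held without any 1 of the arrays. Tnfaip3 fell by 0.91 ± 0.23 (adjusted p = 0.0192) and Nfkb2 by 0.42 ± 0.13 (adjusted p = 0.0484), and the Nfkb2 call was lost without any 1 array of these groups other than injured 48 h replicate 2. The count was 2 without injured 12 h replicate 3 or without injured 48 h replicate 3, with Tnfaip3 and Nfkb2 lost. It was 6 without injured 48 h replicate 2, with Nfkbia and Nfkb1 added. Calls among all genes, in either direction, were 1861, 2252 and 1351 in these fits, against 2180 in the main fit. Bcl2a1 differed by -0.12 ± 0.33 (95% interval -0.82 to 0.59, adjusted p = 0.863), so its 12 and 48 h levels did not differ beyond their spread.

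In some groups most members had their highest or lowest value in the same array. At 48 h all 10 members were highest in injured replicate 2, an array that is the highest of its group in 28.9% of all genes. At 6 h replicate 3 was the lowest in 8 of 10 members, against 30.5% of all genes. At 3 h replicate 1 was the lowest in 8 members (36.2% of all genes) and the highest in the other 2, Nfkbia and Nfkbiz. Injured 48 h replicate 2 was also the array of its group with the highest mean of the monocyte and macrophage markers (2.28, against 1.32 and 0.70), of the neutrophil markers (1.52, against 0.32 and 0.20) and of the microglia markers (1.78, against 1.04 and 1.02). The meninges markers were highest in that array as well (1.02, against 0.27 and 0.33), as were the endothelium, lymphocyte and erythrocyte markers. The astrocyte, neuron, oligodendrocyte and choroid plexus markers were not. The part of these cell types in the values of the members was not tested.

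Markers of other cell types moved over the same hours. The neutrophil list (7 of 9 genes measured) had a mean of -0.03 to 0.14 over the 3 h arrays, 1.41 to 2.63 at 6 h, 2.21 to 2.80 at 12 h and 0.20 to 1.52 at 48 h, against -0.11 to 0.17 in the early shams and 0.36 in the 48 h sham. At 3 h 0 of its 7 genes were called by limma and none had an unadjusted p under 0.05, and at 6 and 12 h 3 and 4 were higher. The monocyte and macrophage list (9 of 9 measured) lay between -0.05 and 0.30 at 3 h, 0.30 and 1.0 at 6 h, 0.60 and 1.33 at 12 h and 0.70 and 2.28 at 48 h, and at 0.56 in the 48 h sham. Its genes went both ways at 3 h, from Mrc1 at -0.84 ± 0.46 (limma adjusted p = 0.626) to Cd14 at 1.69 ± 0.61 (adjusted p = 0.371), with none called and all 3 arrays of Cd14 above the early shams. The microglia list (10 of 10 measured) lay between -0.28 and 0.11 at 3 h, between -1.01 and -0.34 at 6 and 12 h and between 1.02 and 1.78 at 48 h. Its genes did not move alike. At 6 and at 12 h 3 of the 10 were lower, P2ry12, Gpr34 and Tmem119, while Itgam was at 0.61 and 0.94, not called. The median of the 10 was -0.58 at 6 h and -0.22 at 12 h. The erythrocyte list (3 of 4 measured) lay between 1.12 and 2.28 at 3 and 6 h, 0.37 and 1.43 at 12 h and -0.03 and 0.07 at 48 h. The meninges list (6 of 6 measured) lay between -1.10 and -1.01 at 3 h, -1.51 and -0.67 at 6 h, -1.71 and -0.57 at 12 h and 0.27 and 1.02 at 48 h, against -0.35 to 0.25 in the early shams and 0.85 in the 48 h sham, and 1, 3 and 4 of its genes were lower at 3, 6 and 12 h. The choroid plexus list (4 of 5 measured) reached 1.66 at 3 h and 1.43 at 12 h, mostly through Ttr (4.24 ± 1.19 at 3 h, limma adjusted p = 0.189). Centred values do not show which markers are absent. The part of these cells in the values of the members was not tested.

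Upstream of the members, a few of the listed genes were higher. The list of IkB kinases and upstream kinases also holds Tab1, Tab2 and Tab3, which encode partners of a kinase and not kinases. Of its 14 measured genes (16 listed), 0, 2 and 3 were higher at 3, 6 and 12 h, with medians of 0.13, 0.09 and 0.08. At 3 h limma gave 4 of them an unadjusted p under 0.05. Those called were Ripk1, a kinase docked at the tumor necrosis factor receptor (0.79 ± 0.12 at 12 h, adjusted p = 0.00149), Map3k14, the kinase NIK of the noncanonical branch (0.48 ± 0.12 at 12 h, adjusted p = 0.0316), and Chuk, the kinase IKK alpha (0.46 ± 0.10 at 6 h, adjusted p = 0.0304). Of 19 measured receptors, adaptors and ubiquitin ligases (20 listed), 2, 6 and 6 were higher, with medians of 0.06, 0.16 and 0.17. Tlr2, a receptor of bacterial lipoproteins, was higher by 2.07 ± 0.27 at 3 h (limma adjusted p = 0.0019), and Myd88, the adaptor of toll-like and interleukin-1 receptors, by 1.83 ± 0.30 at 12 h (adjusted p = 0.00312). Tnfrsf1a, the main tumor necrosis factor receptor, was higher by 1.77 ± 0.22 at 12 h (adjusted p = 0.000451).

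Downstream, 22 of 22 listed cytokine, adhesion and enzyme genes known as NF-kB targets were measured, and 10, 12 and 13 were higher at 3, 6 and 12 h, with medians of 1.30, 1.09 and 1.24. The largest differences were those of Ccl2, which attracts monocytes (7.14 ± 0.76 at 6 h, limma adjusted p = 0.000163), the cytokine Il1b (5.21 ± 0.39 at 6 h, adjusted p = 1.59e-05) and Cxcl2, which attracts neutrophils (4.79 ± 0.45 at 3 h, adjusted p = 9.31e-05). No gene of these pathway lists was lower at 3, 6 or 12 h. At 48 h against the early shams 2 of the 22 targets were higher, Ccl2 and Icam1, with a median of 0.22.

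**Figure D4:**
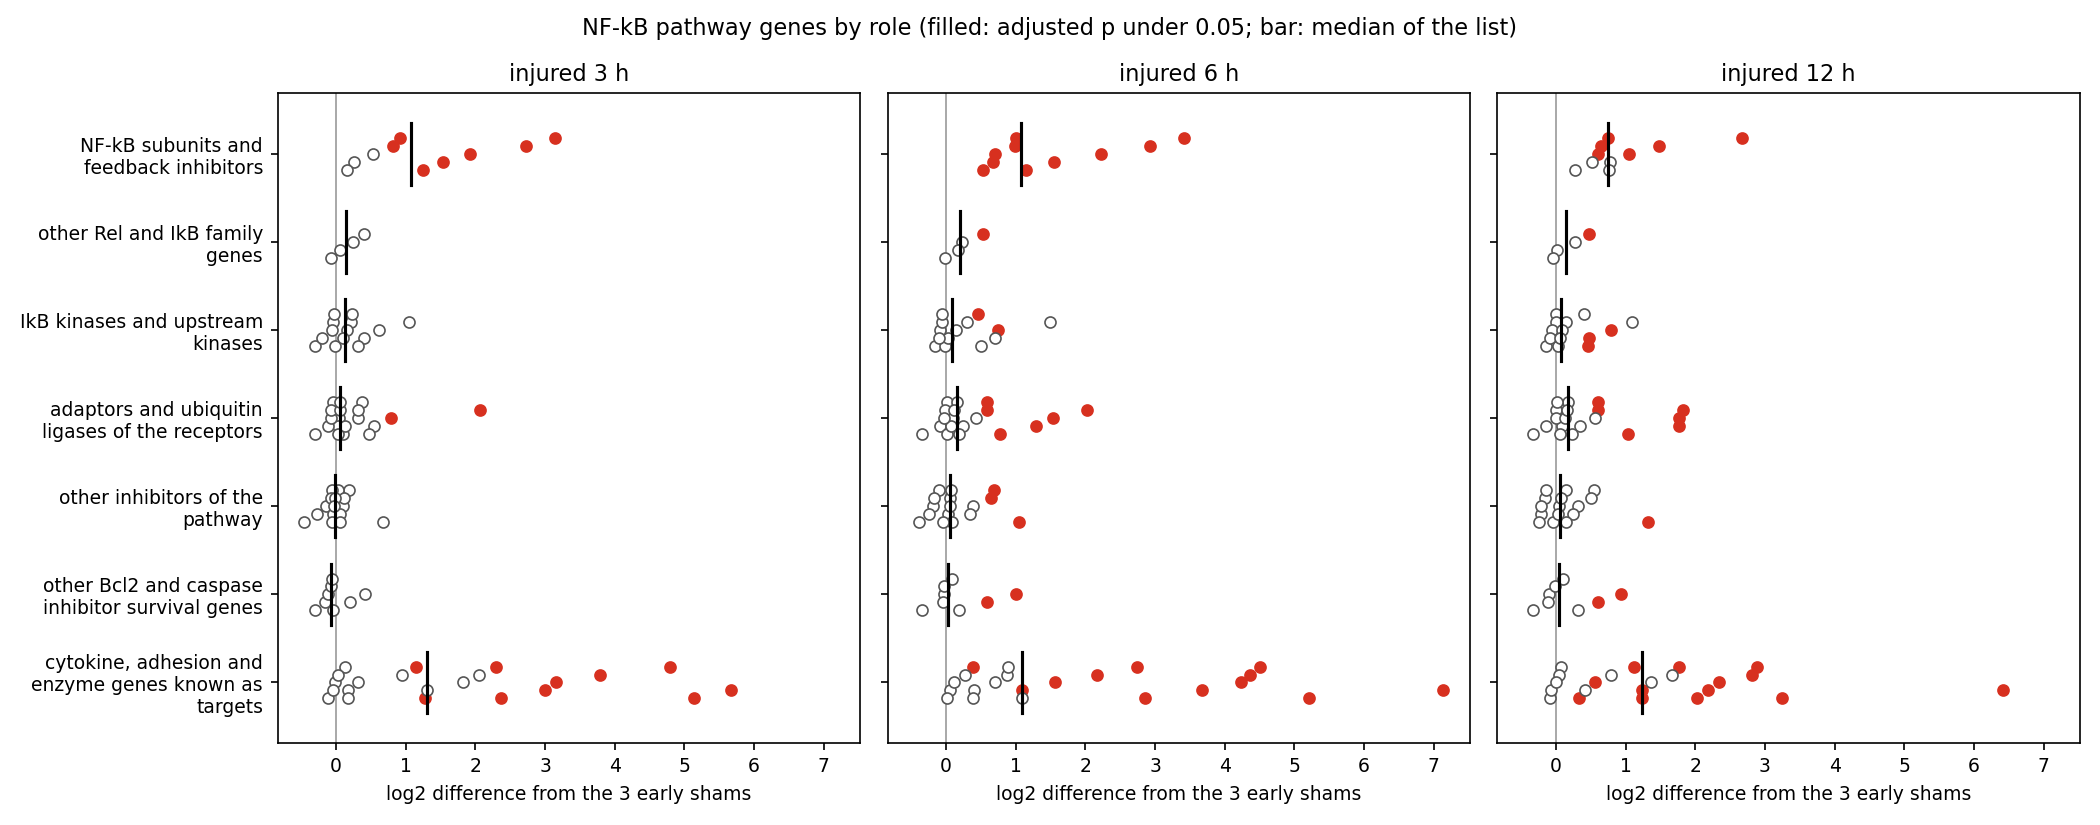
Each point is 1 gene, placed by its log2 difference from the 3 early shams (horizontal axis) at 3, 6 and 12 h (panels) in lists by role (vertical axis), filled red where the adjusted p was under 0.05, with a bar at the median of the list. The members and the targets lie to the right, with medians of 1.08 and 1.09 at 6 h, while the medians of the 5 other lists lie between 0.03 and 0.20.

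The genes of nearest pattern were sought for the 4 members with the largest differences from sham when probe sets are averaged. Nfkbiz is not among these 4, though its probe set 1378032_at alone was higher by 3.24 at 3 h. The search covered the genes outside the 10 members, by the root mean square (RMS) difference over the 16 arrays. Tnfaip3 was nearest to Icam1, an adhesion molecule for leukocytes, at an RMS of 0.38, followed by Ccl9 (0.58) and Atf3 (0.61), against its own RMS of 1.88 from the early shams. The Icam1 means were 3.00, 2.74, 2.02 and 0.79 at 3, 6, 12 and 48 h, and 0.51 in the 48 h sham. Birc3 was nearest to Pvr (0.47), Apcdd1 (0.50) and Hspa1a (0.51), and Nfkbia to Kdm6b (0.56), Maff (0.57) and Plat (0.58). The member Nfkbiz, over its averaged probe sets, was also at 0.56 from Nfkbia. Bcl2a1 had no gene nearer than Adamts1 (0.81), Zfp36 (0.83) and Ch25h (0.86). The Adamts1 means fell to 1.15 at 48 h, where Bcl2a1 was at 2.56, and in the 48 h sham they were at 1.38 and 1.71.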

How the data were processed

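The authors deposited 1 table of log values for 16 arrays, made with RMA per the submitters' processing notes. The base of the logarithm is not given in the sources used here, and the deposited values were taken as log2. Each of the 31099 probe sets was found to have a median of 0 over the arrays, and values run from -5.64 to 5.98 with 2 decimals. Arrays have no read depth, and their number limits the precision.

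Used here were 20832 probe sets that carry 1 gene symbol, updated through the gene identifier for 20764, and 436 with several symbols were left out. The mean of a gene's probe sets stood for it (14218 genes). A limma 3.58.1 model (R 4.3.3) of 6 groups with 10 residual degrees of freedom gave differences, SE and moderated tests, adjusted by Benjamini and Hochberg over all genes, called at 0.05. It was tested on simulated data. The members, the lists and the rules for naming genes (up to 3 called genes per list, the nearest genes of 4 members) were chosen with earlier results of these data known. Replicate numbers were not used to pair the arrays in the main model. Promoters came from RefSeq, assembly GRCr8. Alternatives were other probe set rules, quantile normalization, median centring, robust and weighted fits, other shams, a replicate block, a 2-fold minimum and leaving out each array.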

Additional observations from a re-analysis of the deposited data

Results flagged for a closer look

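Differences between the injured times were tested directly for 6 results, each a difference between injured arrays of 2 times, with no sham subtracted. Between 3 and 12 h, Tnfaip3 differed by -1.24 and Nfkbia by -1.16 on the log2 scale. The 3 h and 12 h shams of Nfkbia, 1 array each, stood at 0.51 and -0.56. Between 12 and 48 h the differences were -0.42 for Nfkb2, -0.68 for Relb, -0.91 for Tnfaip3 and -1.06 for Birc3. All 6 are values of the limma model and are listed because their adjusted p-values were under 0.05. In each, all 3 later arrays lay below all 3 earlier arrays, which after that choice is no separate evidence.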

How the results depend on the processing

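Among the members' called differences, 260 of 311 values under other settings and 129 of 180 values with 1 array left out stayed past the threshold, the other 51 and 51 did not, and none changed sign. Scaling moved the median of all genes by less than 0.03. Counts of called members that moved by over 1.5 times were these. From 3 to 6 h (0 called), 1 passed with every probe set tested by itself and 1 with the probe set of widest spread. In that step 1 passed after quantile normalization, 1 with only the groups compared in the model and 3 with array weights. The last 3 of these settings called 704, 551 and 1204 of all genes, against 170 in the main fit. From 6 to 12 h (0 called), 1 passed after quantile normalization. From 3 to 12 h (2 called), 1 passed with every probe set, with robust moderation and without the 2 arrays of widest spread, a choice made after seeing the data. With a replicate block that count was also 1 (Nfkbia -1.16, adjusted p = 0.07), and Nfkb2 no longer passed from 12 to 48 h (-0.42, adjusted p = 0.0898), nor in the same 12 arrays without the block (adjusted p = 0.0812). Pairs of injured arrays of different times were correlated over all genes after the mean of each group was subtracted from each gene. What remained correlated at -0.19 to 0.26 in same-numbered pairs (median -0.01, 18 pairs) and at -0.21 to 0.20 in the others. From 12 to 48 h (4 called), 2 passed with only the groups compared or with array weights, and 1 with a 2-fold minimum. That minimum left 6 at 6 h and 3 at 12 h, and quantile normalization left 3 at 12 h. With the sham of the same time alone, 1, 3 and 1 passed at 3, 6 and 12 h. With all 4 shams, 1 passed at 48 h. Leaving out 1 array gave 3 to 6 at 3 h, 6 to 10 at 6 h, 3 to 6 at 12 h, 1 to 3 at 48 h against the early shams, 0 to 1 from 3 to 6 h and from 6 to 12 h, 1 to 2 from 3 to 12 h and 2 to 6 from 12 to 48 h. Calls among all genes with 1 array left out were 33 to 117 at 3 h, 177 to 274 at 6 h and 287 to 1230 at 12 h. Arrays give no depth, and with centred values the signal over background is unknown.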
